A study of Homo sapiens with 18 samples.

Results

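The 102 genes described here are all the rows of the authors' deposited table of fenofibrate against DMSO, of 3647 genes held by the 3 deposited tables together. They come from Cal51, an established human breast cancer cell line. The groups are 3 libraries of cells given fenofibrate and 3 of cells given DMSO, the solvent, each for 8 h. Other tables set ezetimibe alone (472 genes) and fenofibrate with ezetimibe, called the combination below (3508 genes), against the same DMSO libraries. No dose, genotype change or further agent is given in the labels for these groups. A further 6 libraries, of a PKM2 knockout and its control, were not analysed here. Nothing in the labels says that the libraries of a group came from separate cultures, so a p-value may measure technical spread alone.

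Fenofibrate is a fibrate, a lipid-lowering drug whose acid form activates PPARα, a nuclear receptor that in liver switches on genes for burning fatty acids. Sterol synthesis is governed apart from that, by SREBP2, a membrane-bound transcription factor that is cut free when membranes run short of cholesterol. A further programme, the integrated stress response, acts through the transcription factor ATF4 and is known for inducing secreted hormones, amino acid enzymes and transporters. Ezetimibe binds NPC1L1, a sterol transporter.

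The table was cut by its authors to genes whose log2 fold change exceeded 1 in size at an adjusted p below 0.05, so all genes were chosen on the same 6 libraries that are compared here. They make up 0.835% of the 12220 genes that the ranks of the p-values point to as tested. Near the edge, the authors' deposited table gives a log2 fold change of 1.01 to NEU1 and -1.01 to PCDH17, and no gene just outside the threshold is in it. A gene that is absent may have been steady, have changed less, or have been too low to test, and is called not listed. The fenofibrate libraries held 92313 to 108822 reads in the listed genes and the DMSO libraries 40113 to 47200. Most of these genes were listed as higher, so these reads do not measure depth, and the full depth is unknown. Values are normalised read counts, in which 1 read was worth 0.892 to 1.12, and they are given in the order of replicates 1, 2 and 3. Positions are on build hg38. Fenofibrate replicate 2 was most often the treated library farthest from its group mean, as set out after the falls, and values without it are given for the genes it moved most among those shown by library. Of 27 markers of epithelial, mesenchymal and 5 other cell types 0 were in the table, so the identity of the cells could not be checked in it. In bulk RNA, fewer cells of a kind and less RNA per cell cannot be told apart.

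Among the 102 genes 93 were higher with fenofibrate (91.2%) and 9 were lower (8.82%) by limma, which called 100% of them. The test repeats the authors' choice on the same libraries and is a description of the spread, not further evidence. Libraries did not overlap between the groups in 100 genes (98%), and the exceptions were GPR89B and SERF1B. Median log2 fold changes were 1.23 for the rises and -1.21 for the falls. A group of 18 genes belonged to sterol synthesis or uptake, all higher, with a median of 1.57. The 84 others held 75 rises with a median of 1.17, and 3 of these, PLA2G3, KLHDC7B and NUPR1, exceeded 2. The other genes were sorted by what their products are known to do, after their values had been seen: 12 secreted, 9 in signalling, 7 of the membrane, 9 in transport, 14 regulators of stress, 16 of metabolism, 6 noncoding, 1 of cell division and 10 of other or unknown function. The DMSO mean was under 50 in 25 genes, each of them outside the sterol group.

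**Figure D1:**
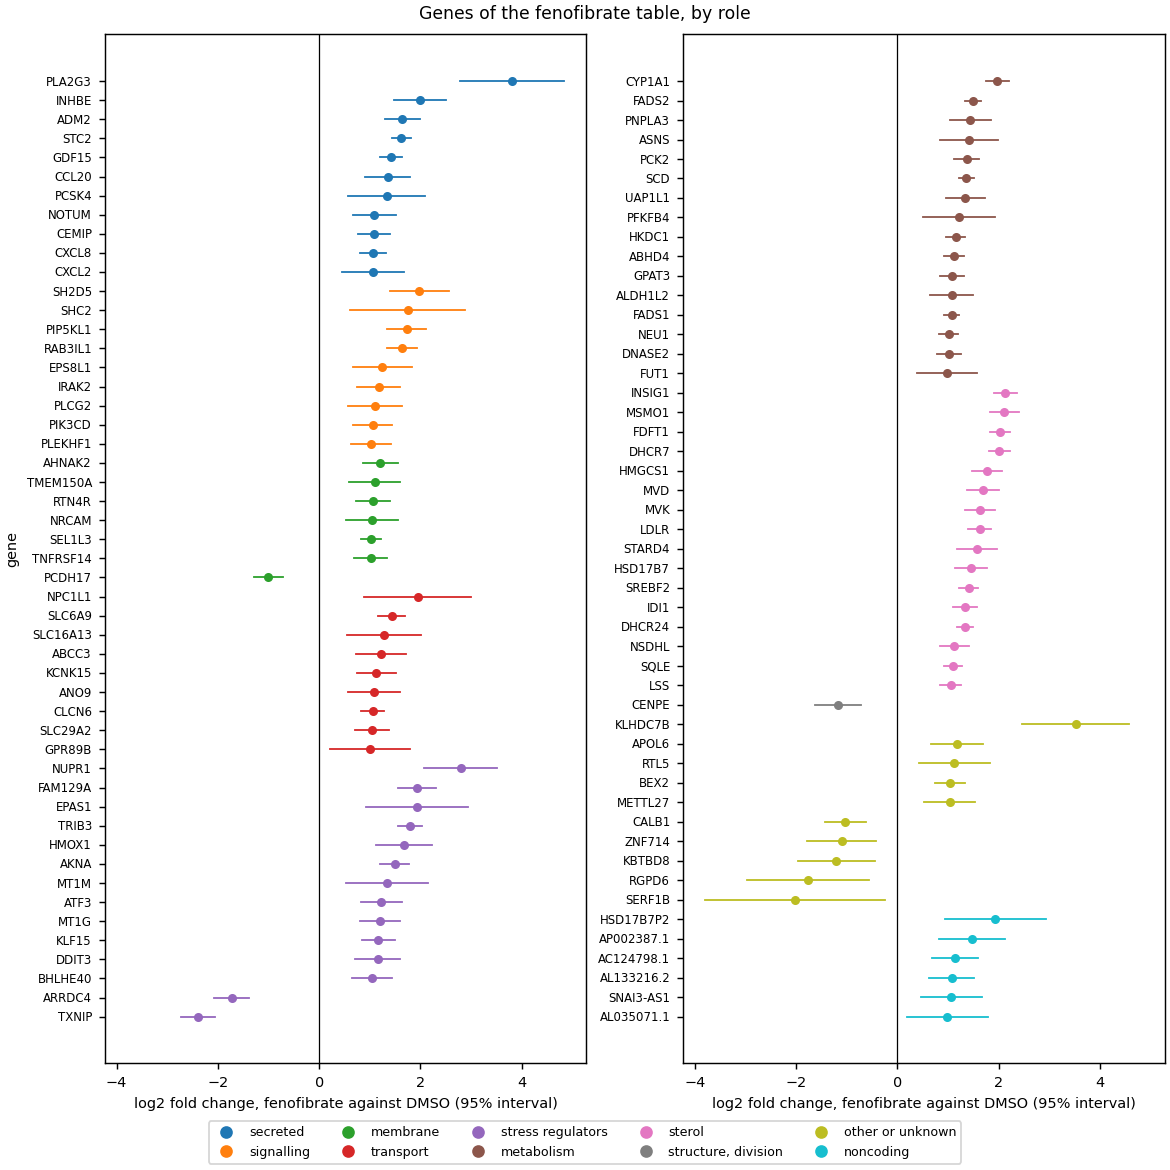
Limma log2 fold change (x axis, fenofibrate against DMSO) of the genes (y axis), coloured by role, with bars for the 95% interval; 3 genes are not shown. The rises lie mostly between 1 and 2, PLA2G3 and KLHDC7B stand farthest to the right, and the 9 falls are spread over 4 roles.

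Every secreted gene of the table was higher, 12 of 12, with log2 fold changes from 1.06 to 3.81 and a median of 1.34. Of all 102 genes 91.2% were higher, so that count is near the share of the whole table. PLA2G3, a secreted phospholipase A2 that frees fatty acids from phospholipids (chr22:31134809-31140607, minus strand), had normalised counts of 125, 131 and 158 with fenofibrate against 4.77, 18.7 and 7.30 with DMSO. Even the lowest fenofibrate library stood far above the highest DMSO library, and DMSO replicate 2 was the highest of its group. The log2 fold change was 3.81 ± 0.45 (adjusted p = 4.82e-05, limma), from 5, 21 and 7 reads in the DMSO libraries. INHBE, which encodes the activin E subunit of the TGFβ family (chr12:57452323-57459280, plus strand), had 169, 194 and 217 with fenofibrate against 63.9, 46.4 and 36.5 with DMSO. DMSO replicate 1 was the highest of its group and still under every fenofibrate library. The log2 fold change of INHBE was 1.99 ± 0.23 (adjusted p = 3.73e-05).

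A pair of peptide and glycoprotein hormones rose about as much as each other. ADM2, an adrenomedullin-family peptide that signals through calcitonin-receptor-like receptors, had 854, 959 and 918 with fenofibrate against 289, 359 and 236 with DMSO, a log2 fold change of 1.64 ± 0.15. STC2, a stanniocalcin that holds back the protease PAPP-A, had 1676, 1596 and 1752 with fenofibrate against 548, 575 and 512 with DMSO, a log2 fold change of 1.62 ± 0.08. Their groups lay well apart, and the fenofibrate libraries of each stayed close together. GDF15, a stress hormone that reduces appetite through the receptor GFRAL, had 1659, 1846 and 1695 with fenofibrate against 717, 633 and 602 with DMSO, or 2.66 times the DMSO mean. Its lowest fenofibrate library was above its highest DMSO library, that of replicate 1.

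The other 7 secreted genes had log2 fold changes from 1.06 to 1.35. Among them were the chemokines CCL20 (log2 fold change 1.35), CXCL8 (1.07) and CXCL2 (1.06), which call in leukocytes. CXCL2 had 111, 112 and 99.3 with fenofibrate against 37.2, 46.4 and 76.1 with DMSO, so that DMSO replicate 3 lay closest to the treated libraries. NOTUM, an enzyme that inactivates Wnt proteins by removing their lipid, had 159, 152 and 148 with fenofibrate against 66.8, 91.0 and 60.5 with DMSO. CEMIP, which takes part in breaking down hyaluronan, rose by 1.08 on the log2 scale, and PCSK4, a proprotein convertase, by 1.33. On the list of growth factors, hormones and secreted enzymes 6 of 34 genes were listed as higher and 0 as lower, and on that of cytokines and chemokines 3 of 26, where 0.761% of all tested genes were listed as higher. In the whole chemokine family the count was 3 of 42. Lists and families were counted whole, with genes that may not have been tested. The lists were chosen with earlier results of these data known, so such counts are a description and no test of enrichment.

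**Figure D2:**
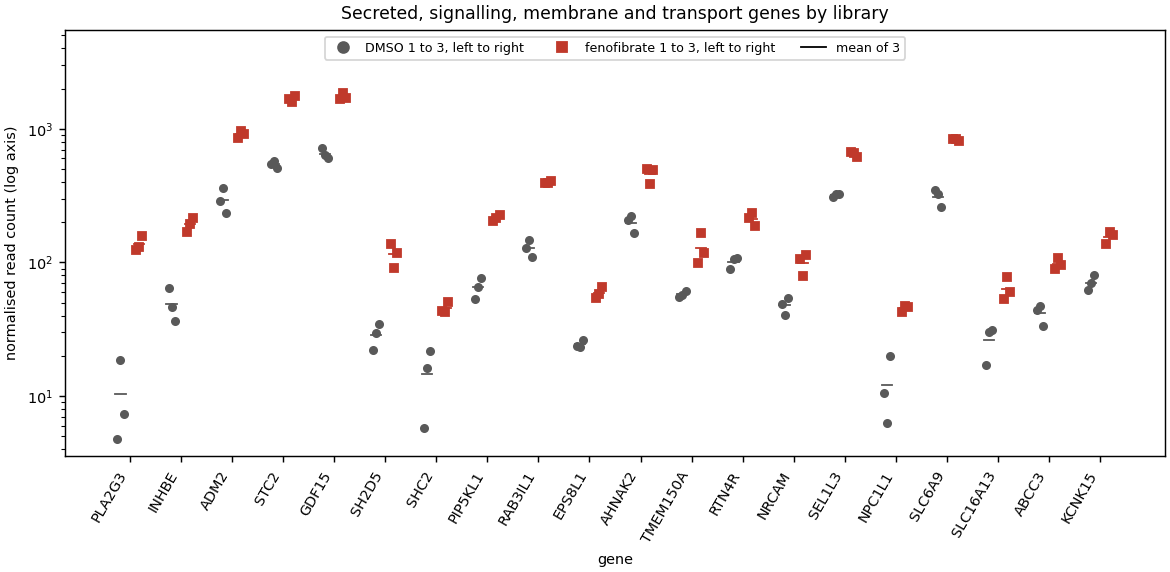
Normalised read count (y axis, log scale) of 20 secreted, signalling, membrane and transport genes (x axis) in the 3 DMSO libraries (grey circles) and the 3 fenofibrate libraries (red squares), with lines for the means. In each of these genes the lowest red square lies above the highest grey circle.

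Signalling genes were 9 in number and all 9 were higher, by log2 1.02 to 1.98, in a table where 91.2% of genes were higher. SH2D5, an adaptor with an SH2 domain (chr1:20719732-20732837, minus strand), had 136, 91.5 and 119 with fenofibrate against 21.9, 29.4 and 34.4 with DMSO, a log2 fold change of 1.98 ± 0.26 (adjusted p = 8.49e-05). Fenofibrate replicate 2 was the lowest treated library and DMSO replicate 3 the highest control, with a wide gap between them. SHC2, a Shc adaptor that couples receptor tyrosine kinases to Ras, had 43.5, 42.4 and 50.1 with fenofibrate against 5.72, 16.1 and 21.9 with DMSO. It had the widest interval of the 9 (0.61 to 2.88 around 1.74), with 6 reads in DMSO replicate 1.

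Phosphoinositide and Rab signalling each had a gene that rose evenly across the libraries. PIP5KL1, related to the kinases that make PI(4,5)P2 (chr9:127920879-127930797, minus strand), had 206, 215 and 226 with fenofibrate against 53.4, 65.1 and 76.1 with DMSO. RAB3IL1, an exchange factor for Rab GTPases of secretory vesicles (chr11:61897301-61920269, minus strand), had 390.4, 395 and 406 with fenofibrate against 129, 146 and 111 with DMSO. Their log2 fold changes were 1.73 ± 0.17 and 1.63 ± 0.13, with treated libraries that differed little among themselves. EPS8L1, related to the actin regulator EPS8, had 54.4, 58.0 and 65.5 with fenofibrate against 23.8, 23.2 and 26.1 with DMSO. The 4 others were IRAK2 (1.17), a kinase of interleukin-1 and Toll-like receptor signalling, PLCG2 (1.10), a phospholipase C, PIK3CD (1.06), a catalytic subunit of PI 3-kinase, and PLEKHF1 (1.02), an endosomal protein. The lists of MAPK and immediate early genes, of receptors and G protein signalling, of ion channels and pumps, and of adhesion and junction genes together had 0 of 113 entries in the table, which is near the background of 0.835% of tested genes listed. These lists were short, and did not hold the channel gene KCNK15 or the adhesion gene NRCAM. Nor did they hold CLCN6 and ANO9 of the transport genes, or PCDH17, RTN4R and TNFRSF14 of the membrane genes. From the Wnt, Notch, BMP and TGFβ list 2 of 32 genes, NOTUM and INHBE, were listed as higher, where 0.761% of all tested genes were.

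At the membrane 6 of 7 genes were higher, near the 91.2% of the whole table. Their log2 fold changes ran from 1.02 to 1.21, and PCDH17 was lower. AHNAK2, a very large scaffold protein (chr14:104937244-104978357, minus strand), had 502, 386 and 493 with fenofibrate against 209, 221 and 166 with DMSO, a log2 fold change of 1.21 ± 0.15. TMEM150A, which supports phosphoinositide synthesis at the plasma membrane, had 98.8, 167 and 119 with fenofibrate against 55.3, 57.1 and 61.5 with DMSO. Its DMSO libraries were nearly equal, and fenofibrate replicate 2 was far above the other two treated libraries; without it the log2 fold change was 0.89 ± 0.18 in place of 1.10 ± 0.22. RTN4R, the GPI-anchored Nogo receptor, had 214, 234 and 188 with fenofibrate against 89.7, 106 and 108 with DMSO. NRCAM, a cell adhesion molecule of the immunoglobulin family, had 106, 79.2 and 114 with fenofibrate against 48.6, 40.2 and 54.2 with DMSO. In both the groups stayed apart, with log2 fold changes of 1.06 ± 0.15 and 1.04 ± 0.22. SEL1L3, a transmembrane protein, had 671, 659 and 619 with fenofibrate against 310.0, 323 and 324 with DMSO, and TNFRSF14, the herpesvirus entry mediator and a TNF receptor, rose by 1.02. It was 1 of 21 genes of the TNF receptor superfamily in the table, and TMEM150A was 1 of 251 genes with the TMEM prefix. Over all tested genes 0.761% were listed as higher, while these families include genes that may not have been tested.

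All 9 transport genes were higher, by log2 1.01 to 1.94, again near the 91.2% of the whole table. NPC1L1, the sterol transporter that ezetimibe binds (chr7:44512535-44541315, minus strand), had 42.5, 46.9 and 46.3 with fenofibrate against 10.5, 6.25 and 19.8 with DMSO. The fenofibrate libraries were nearly equal and above each DMSO library, in which 11, 7 and 19 reads were found. Its log2 fold change was 1.94 ± 0.46 (adjusted p = 0.00304). SLC6A9, the glycine transporter GLYT1 (chr1:43991500-44031467, minus strand), had 842, 844 and 813 with fenofibrate against 347, 326 and 261 with DMSO. Its treated libraries differed by little, and the log2 fold change was 1.43 ± 0.12 (adjusted p = 5.60e-06).

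SLC16A13, a monocarboxylate transporter family member, had 53.4, 78.1 and 59.8 with fenofibrate against 17.2, 30.3 and 31.3 with DMSO. ABCC3, the export pump MRP3 for conjugated bile acids and drugs, had 90.0, 107 and 95.4 with fenofibrate against 43.9, 47.3 and 33.4 with DMSO. KCNK15, a potassium channel subunit of the tandem-pore family, had 138, 169 and 159 with fenofibrate against 62.0, 69.6 and 80.3 with DMSO. None of the 3 overlapped between groups, and their log2 fold changes were 1.28 ± 0.32, 1.22 ± 0.21 and 1.13 ± 0.17. The others were ANO9 (1.09) of the anoctamin family, CLCN6 (1.05), a chloride and proton exchanger of late endosomes, SLC29A2 (1.05), an equilibrative nucleoside transporter, and GPR89B. GPR89B, a Golgi pH regulator with a near-identical copy that could share its reads, had 243, 205 and 87.7 with fenofibrate against 79.2, 88.3 and 76.1 with DMSO. Fenofibrate replicate 3 lay just under DMSO replicate 2, so the groups overlapped, and the call (log2 1.01 ± 0.34, adjusted p = 0.0182) was lost without fenofibrate replicate 1 (0.72, adjusted p = 0.0653), without fenofibrate replicate 2 (0.84, 0.0589) or without DMSO replicate 3 (0.96, 0.0596). Of the whole families 3 of 374 solute carriers, 1 of 45 ABC transporters and 1 of 97 potassium channel genes were listed as higher and 0 as lower. Over all tested genes 0.761% were listed as higher, and the solute carrier and potassium channel counts are near that share. Families were counted whole, with genes that may not have been tested, so the shares have unlike bases and compare only roughly.

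Regulators of stress numbered 14, with 12 higher and 2 lower, where 91.2% of the whole table were higher. NUPR1, a small stress-induced chromatin protein, had 401, 451 and 413 with fenofibrate against 71.5, 90.1 and 33.4 with DMSO, a log2 fold change of 2.79 ± 0.32 (adjusted p = 3.73e-05). The treated libraries were close together while the DMSO libraries ran from 33.4 to 90.1. FAM129A, also called NIBAN1 and induced by endoplasmic reticulum stress, had 514, 357 and 494 with fenofibrate against 113, 131 and 106 with DMSO. EPAS1, the oxygen-regulated transcription factor HIF-2α, had 132, 88.2 and 148 with fenofibrate against 14.3, 47.3 and 42.8 with DMSO. DMSO replicate 1 was its lowest library by far, and its log2 fold change was 1.93 ± 0.44, or 2.15 ± 0.48 without fenofibrate replicate 2. TRIB3, a pseudokinase induced by ATF4, had 2625, 3381 and 2704 with fenofibrate against 828, 863 and 817 with DMSO, a log2 fold change of 1.79 ± 0.10.

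The 8 other rises among these regulators ran from log2 1.04 to 1.67. They were HMOX1 (1.67), which breaks down haem, AKNA (1.49), an AT-hook protein, the transcription factors ATF3 (1.23), DDIT3 (1.15), KLF15 (1.17) and BHLHE40 (1.04), and the metallothioneins MT1M (1.34) and MT1G (1.21), metal-binding proteins with close copies that could share their reads. MT1M had 56.3, 151 and 81.0 with fenofibrate against 33.4, 29.4 and 40.7 with DMSO, with fenofibrate replicate 2 well above the others, and its log2 fold change of 1.34 ± 0.36 became 0.96 ± 0.29 without it. On the ATF4 and amino acid response list 11 of 36 genes were listed as higher and 0 as lower, among them the secreted INHBE, STC2 and GDF15 and the transporter SLC6A9. The hypoxia list had 2 of 21 genes higher, EPAS1 and PFKFB4, and the NRF2 list 2 of 24, HMOX1 and ABCC3. Over all tested genes 0.761% were listed as higher. These lists too were chosen with earlier results of these data known, so their counts are no test of enrichment.

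In metabolism 16 of 16 genes were higher, by log2 0.98 to 1.97, where 91.2% of the whole table were. CYP1A1, a cytochrome P450 induced through the aryl hydrocarbon receptor (chr15:74719542-74725610, minus strand), had 563, 581 and 556 with fenofibrate against 146, 141 and 144 with DMSO. Its libraries were nearly equal within each group, and it had a log2 fold change of 1.97 ± 0.10 (adjusted p = 3.25e-07). It was the 1 gene listed as higher of 18 on the list for that receptor and drug metabolism, where 0.761% of all tested genes were. FADS2, a desaturase of polyunsaturated fatty acids, had 2754, 2834 and 2764 with fenofibrate against 974, 1022 and 968 with DMSO. PNPLA3, a lipid droplet protein, had 247, 185 and 278 with fenofibrate against 82.0, 91.9 and 82.4 with DMSO. These 2 belong with FADS1 and SCD to the 4 of 22 fatty acid and glycerolipid genes listed as higher, beside that same 0.761%. ASNS, asparagine synthetase, had 85.0, 65.8 and 84.8 with fenofibrate against 28.6, 24.1 and 34.4 with DMSO, and PCK2, the mitochondrial PEP carboxykinase, had 2352, 2609 and 2414 with fenofibrate against 1012, 1048 and 814 with DMSO. Their log2 fold changes were 1.41 ± 0.25 and 1.37 ± 0.11, without overlap. The 11 others ran from 0.98 to 1.36 and included GPAT3, which starts triglyceride synthesis, HKDC1, a hexokinase-like enzyme, and the lysosomal enzymes NEU1 and DNASE2.

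The 18 sterol genes reached log2 2.13, in INSIG1, and 7 of them were also in the ezetimibe table and 4 in that of the combination. Of all 102 genes 60 and 65 were. With NPC1L1 the sterol genes make up the 19 of 30 genes of the cholesterol synthesis and SREBP2 list that were listed as higher. Over all tested genes 0.761% were, and that list too was chosen with earlier results of these data known. Of 44 genes listed as PPARα targets or enzymes of fatty acid oxidation 0 were higher and 1, TXNIP, was lower; with 0.761% of all tested genes listed as higher, a count of 0 is near the background. PPARA itself was not listed, nor was PKM.

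The 9 falls had no common role, but they include both closely related α-arrestins of the carbohydrate response list. TXNIP, which binds thioredoxin and lowers glucose uptake (chr1:145992435-145996600, minus strand), had 92.9, 67.0 and 82.9 with fenofibrate against 437, 422 and 417 with DMSO. ARRDC4, its relative (chr15:97960698-97973838, plus strand), had 87.0, 81.5 and 87.7 with fenofibrate against 287, 242 and 335 with DMSO. Their fenofibrate libraries were far below every DMSO library, at a mean of 19% and 29.7% of the DMSO mean. The log2 fold changes were -2.39 ± 0.15 (adjusted p = 8.84e-07) and -1.73 ± 0.15 (adjusted p = 6.90e-06). Of the 14 genes on that list these 2 were lower and 0 were higher, where 0.0736% of all tested genes were listed as lower. That list was chosen with earlier results of these data known, so the count is a description.

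Both genes are known to be switched on through carbohydrate response elements, paired E-box sequences that MondoA and its relative ChREBP bind. The stretch before each gene is shown because they fell together. It is RefSeq sequence of build GRCh38.p14, 5′ to 3′ on the strand of the gene and outside the gene model, at chr1:145996601-145996829 on the minus strand and chr15:97960453-97960697 on the plus strand. Capitals mark a paired element, 2 E-box-like words, in TXNIP and the E-box CACGTG in ARRDC4.
TXNIP: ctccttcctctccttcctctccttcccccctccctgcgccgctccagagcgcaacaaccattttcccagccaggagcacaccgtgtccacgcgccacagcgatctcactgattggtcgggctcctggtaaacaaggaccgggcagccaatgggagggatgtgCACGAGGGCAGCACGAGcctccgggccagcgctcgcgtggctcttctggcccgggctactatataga
ARRDC4: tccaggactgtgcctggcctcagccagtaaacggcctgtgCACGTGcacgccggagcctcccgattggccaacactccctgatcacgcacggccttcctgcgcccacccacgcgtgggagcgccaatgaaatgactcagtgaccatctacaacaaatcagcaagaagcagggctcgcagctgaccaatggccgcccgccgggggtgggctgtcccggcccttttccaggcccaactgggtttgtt
The marked words begin 67 and 205 bases before the start of the gene models. Over all 35116 promoters of 300 bases in the RefSeq table, on both strands, 0.057% held the paired word, which was added after these sequences had been read, and 7.26% held CACGTG. Promoters were found for 70 of the 102 genes, 96 in all, and 9 of these (9.38%) held CACGTG. The paired word was found for TXNIP alone and not for ARRDC4. Besides ARRDC4, CACGTG was found for CENPE, which fell, and for BEX2, BHLHE40, CLCN6, INSIG1, KLF15, LSS and NEU1, which rose. A match is a description of the letters, not a bound site.

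PCDH17, a protocadherin of the cell surface (chr13:57631810-57729311, plus strand), had 106, 102 and 109.9 with fenofibrate against 207, 205 and 226 with DMSO. CALB1, the calcium-binding protein calbindin, had 89.0, 114 and 116 with fenofibrate against 177, 229 and 248 with DMSO. In both genes every fenofibrate library was below every DMSO library, at 49.7% and 48.6% of the DMSO mean, with log2 fold changes of -1.002 ± 0.12 and -1.03 ± 0.18. CENPE, a kinesin that moves chromosomes to the spindle equator, had 686, 425 and 706 with fenofibrate against 1287, 1159 and 1564 with DMSO. It was the 1 gene lower of 25 on the list of centromere, kinetochore and large mitotic genes, and 0 were higher. ZNF714, a zinc finger protein, had 250.1, 100.4 and 195 with fenofibrate against 335, 337 and 428 with DMSO and was 1 of 514 genes with the ZNF prefix. Over all tested genes 0.0736% were listed as lower, and a single gene does not describe its list or family. KBTBD8, an adaptor of the CUL3 ubiquitin ligase, had 96.9, 37.9 and 88.7 with fenofibrate against 160.2, 142 and 182 with DMSO. In these 3 genes fenofibrate replicate 2 was far below the other treated libraries. Without it the log2 fold changes were -0.93 ± 0.13 for CENPE in place of -1.17 ± 0.20, -0.72 ± 0.16 for ZNF714 in place of -1.10 ± 0.30 and -0.79 ± 0.15 for KBTBD8 in place of -1.21 ± 0.33, and all 3 kept their calls.

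RGPD6 and SERF1B each have a near-identical copy elsewhere in the genome, so how their reads were assigned is uncertain. RGPD6, a RanBP2-like protein, had 29.7, 12.3 and 54.9 with fenofibrate against 152, 88.3 and 64.6 with DMSO, a log2 fold change of -1.77 ± 0.52 (adjusted p = 0.00946). Without fenofibrate replicate 2, the lowest, it was -1.22 ± 0.40. SERF1B, a small protein related to an amyloid modifier, had 22.7, 3.35 and 10.6 with fenofibrate against 109.7, 21.4 and 31.3 with DMSO. Its fenofibrate replicate 1 lay above DMSO replicate 2, and DMSO replicate 1 was far above all others. The call (log2 -2.02 ± 0.78, adjusted p = 0.0306) was lost without fenofibrate replicate 2 (-1.38, adjusted p = 0.0929), without DMSO replicate 1 (-1.34, 0.124) and without DMSO replicate 3 (-2.23, 0.0518).

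**Figure D3:**
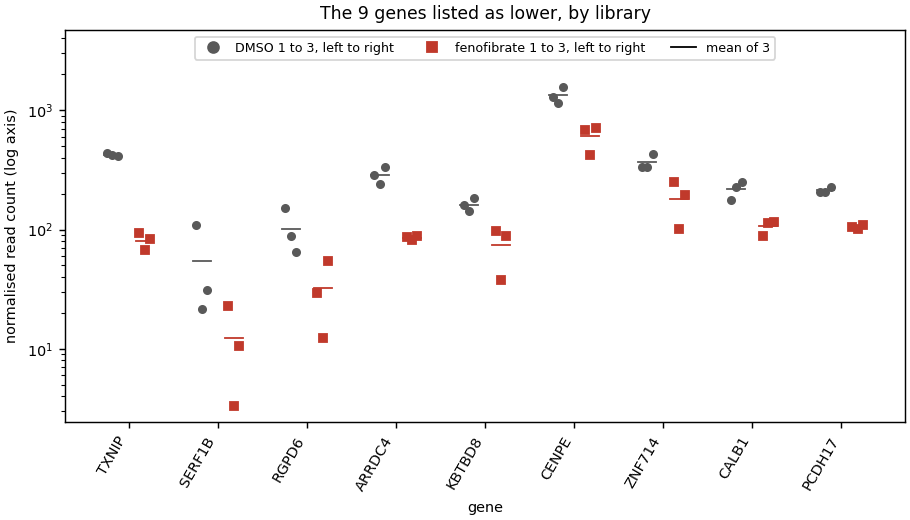
Normalised read count (y axis, log scale) of the 9 lower genes (x axis) in the DMSO (grey circles) and fenofibrate (red squares) libraries, with lines for the means. PCDH17 has tight groups, and the groups of TXNIP and ARRDC4 lie far apart. The middle square, replicate 2, lies lowest in 8 of the 9 genes.

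Across the table fenofibrate replicate 2 was the library farthest from its group mean in 61 of 102 genes, and the SD of its log2 deviations was 0.303 against 0.218 and 0.195 in replicates 1 and 3. Among the DMSO libraries this SD was 0.269 to 0.271, and DMSO replicate 3 was most often the farthest, in 47 genes. The deviation of fenofibrate replicate 2 fell with the length of the gene model (Spearman's rho = -0.50 over the 102 genes, which share that library). For replicates 1 and 3 rho was 0.54 and 0.32; the 3 deviations of a gene sum to 0, so these values do not show which library is the odd one. The lower genes had a longer median model than the higher ones, 7138 against 4343 bases. Their transcripts also had less GC, with a median of 39.3% (32.2% to 49.0%) against 54.8%. All 9 were under 50% GC, as were 27 of the 93 rises. Deviations also went with GC in controls, with rho of -0.10, 0.49 and -0.34 for DMSO replicates 1, 2 and 3. For fenofibrate replicates 1, 2 and 3 rho with GC was -0.36, 0.18 and -0.03. The part of length or GC in the falls was not tested. Without fenofibrate replicate 2 TXNIP, ARRDC4, CALB1 and PCDH17 had log2 fold changes of -2.26 ± 0.11, -1.70 ± 0.15, -1.08 ± 0.19 and -0.97 ± 0.12.

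**Figure D4:**
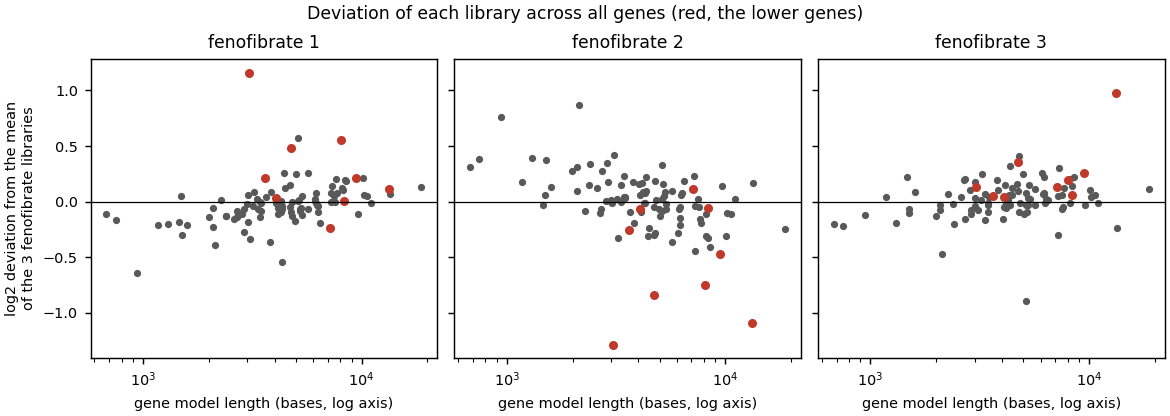
Log2 deviation of each fenofibrate library from the mean of the 3 (y axis) against the length of the gene model in bases (x axis, log scale), 1 panel per library and 1 point per gene, with the 9 lower genes in red. The deviations sum to 0 over the panels for each gene, the points of replicate 2 slope downwards with length, and 8 of its red points lie below 0.

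Among the genes of other or unknown function KLHDC7B, a kelch-repeat protein (chr22:50545891-50551023, plus strand), rose most. It had 112, 105 and 118 with fenofibrate against 8.58, 17.8 and 4.17 with DMSO, from 9, 20 and 4 reads in the DMSO libraries, and the groups were wide apart. The log2 fold change was 3.52 ± 0.46 (adjusted p = 9.05e-05). APOL6, an apolipoprotein L, had 129, 89.3 and 119.5 with fenofibrate against 40.1, 58.0 and 50.05 with DMSO. KLHDC7B lies 59450 bases from ADM2 on the same strand, and its promoter and that of FUT1 were the 2 of 96 that held TGATGNAAT, a form of the composite element of ATF4 and C/EBP factors, a word found in 0.991% of all promoters. The stretch before KLHDC7B is shown for that word, in capitals as its reverse complement, at chr22:50545649-50545890 on the plus strand.
KLHDC7B: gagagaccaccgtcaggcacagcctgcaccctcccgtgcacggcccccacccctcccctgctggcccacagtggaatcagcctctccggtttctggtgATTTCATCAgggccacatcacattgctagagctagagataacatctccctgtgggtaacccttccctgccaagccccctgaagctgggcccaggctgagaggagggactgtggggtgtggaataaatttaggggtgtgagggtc
Of the other words searched, on both strands, CCAAT was in 41 of the 96 promoters (42.7%, against 34.6% of all), TCACNCCAC, a sterol element, in 2 (2.08%, against 1.13%), and TTGCGTG, an aryl hydrocarbon receptor element, in 2 (against 1.16%). The PPAR element, a direct repeat of AGGTCA, was in 0 of 96 and in 0.0228% of all.

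Several listed genes are neighbours. Within 100000 bases of each other lay 9 pairs made of 15 genes, and both members were higher in all 9, in a table where 91.2% of genes were higher. INHBE and DDIT3 lay 57307 bases apart, and RAB3IL1 29946 bases from FADS2. FADS1 and FADS2 overlap by 29694 bases on opposite strands, and the antisense RNA AP002387.1 overlaps DHCR7 by 3484, so that reads of these pairs cannot be told apart where counting did not use the strand, which is not stated. AP002387.1 had 82.0, 110.5 and 77.1 with fenofibrate against 31.5, 42.8 and 22.9 with DMSO. The antisense RNA SNAI3-AS1 starts 136 bases from MVD, a sterol enzyme, in the opposite direction. It had 67.2, 51.3 and 52.0 with fenofibrate against 29.6, 25.9 and 24.0 with DMSO, and MVD had 1505, 1508 and 1670.1 with fenofibrate against 456, 599 and 409 with DMSO, log2 fold changes of 1.07 ± 0.26 and 1.69 ± 0.14. The gap between them is shown as the stretch they share, at chr16:88663162-88663297 on the plus strand, with capitals for CCAAT on either strand.
MVD to SNAI3-AS1: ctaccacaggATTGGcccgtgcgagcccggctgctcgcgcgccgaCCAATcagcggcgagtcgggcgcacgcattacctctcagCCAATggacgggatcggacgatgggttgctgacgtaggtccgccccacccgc
It holds the word 3 times. The table has 6 genes that do not code for protein in all, and each was higher, near the 91.2% of the whole table. HSD17B7P2, a pseudogene of the sterol enzyme HSD17B7 that could share its reads, had 41.5, 67.0 and 49.1 with fenofibrate against 15.3, 7.14 and 18.8 with DMSO, while HSD17B7 had 213, 258 and 213 with fenofibrate against 83.9, 83.0 and 79.2 with DMSO. AL133216.2, another pseudogene 24683 bases away, had 241, 268 and 185 with fenofibrate against 134, 90.1 and 105 with DMSO. The antisense RNA AC124798.1 had 192, 295 and 219.7 with fenofibrate against 90.6, 101 and 127 with DMSO. AL035071.1, a long intergenic RNA, had 94.9, 229.9 and 89.6 with fenofibrate against 65.8, 50.9 and 73.0 with DMSO, and fenofibrate replicate 2 alone was far above the rest. Its call was lost without DMSO replicate 2 (log2 0.84, adjusted p = 0.0720), and its log2 fold change of 0.99 ± 0.35 became 0.55 ± 0.21 without fenofibrate replicate 2.

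Of the 102 genes 60 were also in the ezetimibe table, where 3.47% of tested genes were listed, and 65 in that of the combination, where 17.6% were. In both were 49, and in neither 26, of which 9 were sterol genes. The 3 tables share the DMSO libraries, so only the treated libraries were compared, by limma after setting the tables on one scale through those controls. Genes not listed with the other treatment could not be compared. Of the 60 genes 26 were lower with fenofibrate than with ezetimibe (43.3%), 9 were higher (15%) and 25 were not called (58.3% called). Of the 65, 45 were lower with fenofibrate than with the combination (69.2%), 6 were higher (9.23%) and 14 were not called (78.5% called).

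Among secreted genes 7 of 11 were lower with fenofibrate than with ezetimibe, where 43.3% of all compared genes were. Against the combination 8 of 10 were lower, near the 69.2% of all compared genes. GDF15 had log2 fold changes against DMSO of 1.41 with fenofibrate, 1.86 with ezetimibe and 4.51 with the combination, and CXCL8 had 1.07, 1.88 and 3.61. The difference of GDF15, fenofibrate minus ezetimibe, was -0.45 ± 0.08 (adjusted p = 0.000405), and minus the combination -3.09 ± 0.11 (adjusted p = 3.32e-09). PLA2G3 had 3.81 with fenofibrate and 3.05 with ezetimibe and was not listed with the combination. Its difference from ezetimibe was not called, with a 95% interval of -0.07 to 1.59.

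KLHDC7B and FAM129A changed by less with fenofibrate than with either other treatment. KLHDC7B had 3.52, 5.92 and 7.55 with fenofibrate, ezetimibe and the combination, and its difference, fenofibrate minus ezetimibe, was -2.39 ± 0.36 (adjusted p = 0.000139). FAM129A had 1.94, 4.05 and 5.29, and its difference from ezetimibe was -2.11 ± 0.13. SH2D5 went the other way with the single drugs, at 1.98 with fenofibrate and 1.02 with ezetimibe (difference 0.96 ± 0.23, adjusted p = 0.0048), yet 3.07 with the combination. Of the 60 genes compared 9 (15%) were higher with fenofibrate than with ezetimibe, and 5 of these were sterol genes, of 7 compared. The other sterol genes were not listed with ezetimibe and could not be compared. PCDH17 and CALB1, also among the 9, were falls that were smaller with fenofibrate. RAB3IL1 was not called against ezetimibe (-0.07 ± 0.11, interval -0.32 to 0.18), nor was SLC16A13 (-0.63 to 0.57), NPC1L1 (-0.50 to 1.11) or NUPR1 (-0.62 to 0.62).

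With the combination RTN4R, NOTUM and ARRDC4 were listed on the opposite side. RTN4R had a log2 fold change of 1.06 with fenofibrate and -1.26 with the combination, and the difference was 2.32 ± 0.16 (adjusted p = 3.15e-07). NOTUM had 1.08 and -1.01, with a difference of 2.10 ± 0.18. ARRDC4 turned from -1.73 to 1.00, a difference of -2.73 ± 0.17. None of these was listed with ezetimibe, and TXNIP was listed with neither. Other falls went further: PCDH17 had -1.002, -1.56 and -3.75 with fenofibrate, ezetimibe and the combination, and CALB1 -1.03, -1.70 and -2.32. Both differed from each of the other treatments (fenofibrate minus ezetimibe 0.56 ± 0.15 and 0.67 ± 0.18). CENPE had -1.17, -1.32 and -1.43 and was called against neither, with intervals of -0.23 to 0.54 and -0.51 to 1.03.

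**Figure D5:**
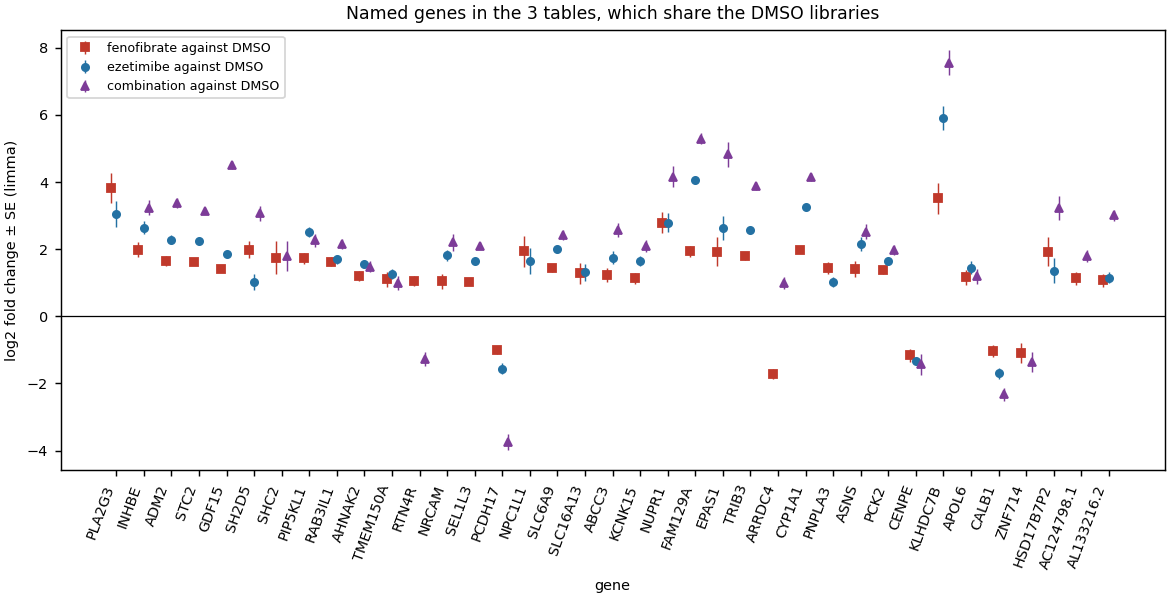
Limma log2 fold change ± SE against DMSO (y axis) of the named genes listed in at least 1 other table (x axis), with fenofibrate (red squares), ezetimibe (blue circles) and the combination (purple triangles). Symbols are missing where a gene was not listed. RTN4R and ARRDC4 have squares and triangles on opposite sides of 0, and KLHDC7B has the highest triangle.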

How the data were processed

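RNA of Cal51 cells was extracted and made into mRNA libraries with commercial kits, per the labels' protocols. Tools listed in the submitters' processing notes are fastp, HISAT2 2.0.5 and featureCounts 1.5.0-p3, with build hg38; which tool compared the groups is not stated in these sources. The tables hold, per the file headers, a normalised signal for each library and the authors' log2 fold change and p-value. From the values, the deposited signal equals reads divided by 1 factor per library and table (whole multiples within 0.001 for 100% of values). Positions equal those of GENCODE release 29 for 102 of 102 genes, and GC is that of each gene's longest GENCODE transcript.

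Groups follow the labels. Limma 3.58.1 (with trend, R 4.3.3) was run on log2(value + 1), which understates changes of low genes, with 2-sided p-values adjusted by the Benjamini-Hochberg method over the 102 genes and a threshold of 0.05. The script was tested on simulated data. Fenofibrate was set against ezetimibe and the combination over the 60 and 65 genes held by both tables. Values by library are given for every lower gene, for NPC1L1 and for up to 5 genes of each role outside the sterol group with the largest change; other genes, such as CXCL2 or MT1M, were chosen after their values were seen. Roles were assigned after the table was seen, and members and lists were chosen with earlier results of these data known. Alternatives changed the pseudocount, the filter, the trend, the scale, the replicate block and the libraries used. Results for 3 genes of the table are not reported here, though counts include them.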

Additional observations from a re-analysis of the deposited data

How the results depend on the processing

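The counts of 102 genes called, 93 higher and 9 lower were unchanged with a pseudocount of 0.5 or 5, with a minimum mean of 20, without the trend, and on the DMSO scale of the combination table. The authors had chosen all 102 genes on these same libraries. High counts and steady directions were therefore largely set in advance and are no independent evidence. A minimum mean of 50 left 95 genes, all called, 87 higher and 8 lower, 94 of them without overlap. Leaving out each library in turn gave 100 to 102 genes called, 92 to 93 higher, 8 to 9 lower and 100 to 102 without overlap. A group of 2 is then assumed to vary like the other group. The calls lost were those of GPR89B, SERF1B and AL035071.1, given with their values above, and no gene changed direction. SERF1B was the only gene whose change moved by over 1.5 times in fold without a library. Deviations of same-numbered libraries correlated at 0.24, 0.08 and -0.13 across the 102 genes. The labels do not say whether numbers pair the samples, and these few correlations over selected genes cannot decide it. The fit with the replicate number as a block called 102 genes, 93 higher and 9 lower. The planned count tests, edgeR and DESeq2, were not run, since the deposited values are normalised and were not treated as counts. Only genes past the authors' threshold could be examined, total depth is unknown, and genes with few reads in DMSO have wide intervals.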
